A study of Mus musculus with 15 samples.

Results

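The 10 genes described here handle cellular iron: its uptake (Tfrc, Slc11a2, Steap3), its storage (Fth1, Ftl1), its export (Slc40a1), its release from haem (Hmox1) and the sensing of its level (Ireb2, Aco1, Fbxl5). They were chosen by name out of 32434 entries of a table of RNA sequencing counts, with earlier results of the same table known, among them the low Tfrc of the line IL6Myc-2. All 10 were found, each as a single entry written in capitals (TFRC, FTH1, FTL1, SLC11A2, SLC40A1, HMOX1, IREB2, ACO1, STEAP3 and FBXL5). All 10 were among the 11773 entries that passed the filter on low counts. The filter asked for at least 1 CPM, the count relative to library size, in 3 or more libraries, before TMM scaling. Levels in CPM are given below after that scaling. Slc40a1 passed the filter through the line IL6Myc-1 alone, and Steap3 through libraries of the lines IL6Myc-1 and IL6Myc-2. The levels of the 10 genes are therefore given as a description, with no p-value; standard errors and intervals beside them give the precision of a value, and the calls made over the whole table are counted for them without being read as support.

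The samples were myeloma lines established from IL6Myc mice, 5 in number and called IL6Myc-1 to IL6Myc-5, and all carried the genotype label IL6Myc. Myeloma arises from plasma cells, which secrete antibody. Each line was sequenced as 3 technical replicates, so 15 libraries of total RNA were compared, with 19068543 to 41165599 estimated counts each, and no normal plasma cell, treatment or other control was analysed here. Each line is 1 biological unit, and p-values measure only the spread between technical replicates. The labels give no promoter or cell type for the IL6Myc alleles, and no age or treatment of the mice.

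Iron enters most cells bound to transferrin, which the transferrin receptor carries into endosomes, where a reductase and a divalent metal transporter pass the iron to the cytosol. Iron that is not used is stored in ferritin, a shell of heavy and light chains, or leaves the cell through ferroportin. The balance is set after transcription: the iron regulatory proteins IRP1 (Aco1) and IRP2 (Ireb2) bind stem-loops called iron-responsive elements (IREs) when iron is low, which stabilises the Tfrc mRNA through its 3′ UTR and blocks translation of ferritin and ferroportin mRNAs through their 5′ UTRs. Fbxl5 is the iron-sensing subunit of the ubiquitin ligase that degrades IRP2. Plasma cells produce large amounts of secreted antibody, and MYC is known to act on Tfrc, Ireb2 and Fth1 transcription.

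The stem-loops are shown because they divide the members into the mRNA that IRPs stabilise and the mRNAs whose translation they block. GENCODE M21 transcripts (GRCm38) were searched on the sense strand for a bulged C, 5 bases, the loop CAGTG followed by any base but G, and 5 bases that pair with the first 5, with G-T pairs allowed. A match was found in 4 of the 10 members, with 7 sites in all, and in 0.992% of 21875 protein-coding genes. The capitals mark the loop. Tfrc held 4 matches in its 3′ UTR, and Fth1, Ftl1 and Slc40a1 held 1 each in the 5′ UTR.
Tfrc, chr16:32631219-32631248, + strand: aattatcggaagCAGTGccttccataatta
Tfrc, chr16:32631598-32631627, + strand: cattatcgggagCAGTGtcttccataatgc
Tfrc, chr16:32631663-32631692, + strand: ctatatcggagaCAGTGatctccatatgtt
Tfrc, chr16:32631710-32631739, + strand: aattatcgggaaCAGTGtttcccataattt
Fth1, chr19:9982732-9982761, + strand: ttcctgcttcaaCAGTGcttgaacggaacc
Ftl1, chr7:45459778-45459807, - strand: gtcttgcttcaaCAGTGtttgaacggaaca
Slc40a1, chr1:45925464-45925493, - strand: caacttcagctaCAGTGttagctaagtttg

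No match to this pattern in Slc11a2, Steap3, Hmox1, Ireb2, Aco1 and Fbxl5 says only that the whole pattern, stem and loop, was not found in the transcripts searched. RefSeq promoter windows (GRCm38.p6), from 250 bases before to 50 after a start site, were given for 6 members with 11 windows, and no entry matched Slc11a2, Slc40a1, Hmox1 or Fbxl5. Neither the E-box CACGTG, which MYC binds and which was present in 7.15% of 32851 windows, nor the antioxidant response element core TGACNNNGC, present in 12.4% of them on either strand, was found in those 11 windows. With only 11 windows, nothing is read from these absences. The loop CAGTG alone, searched on the sense strand in the first 50 transcribed bases, was present in 7.2% of all windows. Among the members it was found in Steap3, with its first base at position 9 from the start site.

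**Figure D1:**
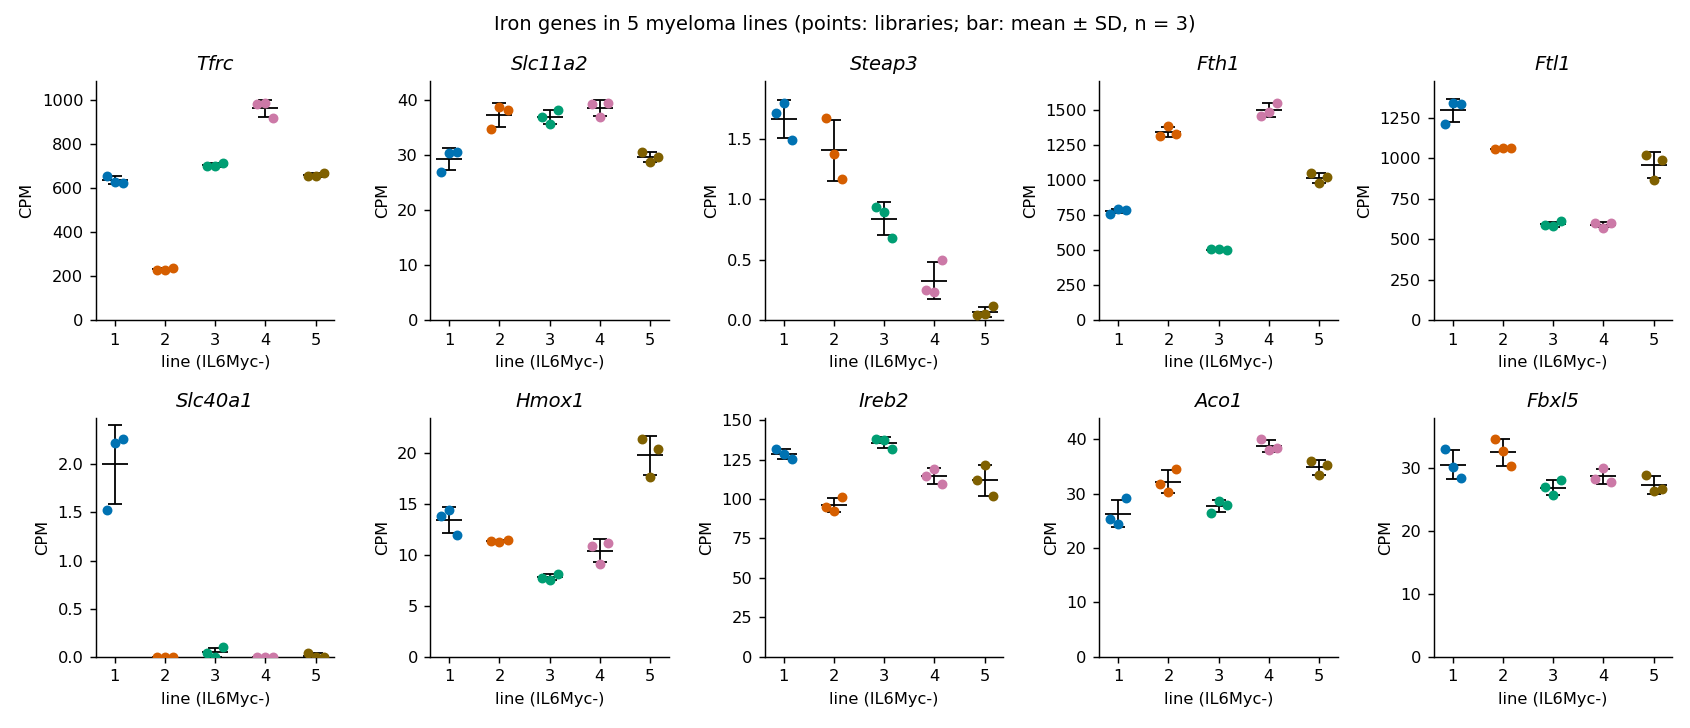
Level of each of the 10 iron genes (y axis, CPM, from 0) in each of the 5 lines (x axis); points are libraries, and bars give the mean ± SD of the 3 technical replicates. Tfrc was lowest in IL6Myc-2 at 227 to 235 CPM, Fth1 was lowest in IL6Myc-3 at 498 to 506 CPM, and Slc40a1 stood above 1.5 CPM in IL6Myc-1 alone.

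Tfrc, the transferrin receptor, was lowest in IL6Myc-2. Its 3 libraries there were at 227, 227 and 235 CPM. The libraries of IL6Myc-1 were at 655, 624 and 624 CPM, those of IL6Myc-3 at 699, 700 and 712 CPM, and those of IL6Myc-5 at 656, 653 and 667 CPM. IL6Myc-4 had 980, 986 and 916 CPM. All 3 libraries of IL6Myc-2 were thus below, and all 3 of IL6Myc-4 above, the other 12 libraries, while IL6Myc-1 and IL6Myc-5 overlapped. From highest to lowest, the means were 961 ± 39 CPM (SD, n = 3) in IL6Myc-4, 704 ± 7.3 in IL6Myc-3, 659 ± 7.5 in IL6Myc-5, 634 ± 18 in IL6Myc-1 and 230 ± 4.2 in IL6Myc-2, a 4.18-fold span, with a 2.76-fold step between IL6Myc-1 and IL6Myc-2. Against the mean of the other 4 lines, IL6Myc-2 was lower by a log2 difference of -1.67 ± 0.03 (SE) and IL6Myc-4 higher by 0.91 ± 0.03. In bulk RNA, fewer cells with a transcript and less of it per cell cannot be told apart.

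Other measurements moved with Tfrc in IL6Myc-2. Of 12 proliferation genes, 11 had their lowest mean in IL6Myc-2, and their summed level was 1904 to 1932 CPM in its libraries against 2161 to 2599 CPM in the others. The exception was Mki67, a marker of cycling cells, which was lowest in IL6Myc-4 at 531 ± 18 CPM and stood at 605 ± 18 CPM in IL6Myc-2. None of these 12 genes passed the threshold of 1 log2 unit among the lines in edgeR, DESeq2 or limma, although all 12 had an unadjusted p under 0.05 in each, and their largest span was 0.951 log2 units in edgeR. Myc itself had its highest mean in IL6Myc-2, 1528 ± 60 CPM, where it overlapped IL6Myc-5, and was lowest in IL6Myc-3, at 1029 ± 43 CPM. IL6Myc-2 also had the highest 18S ribosomal RNA level (Rn18s, 6201 to 6533 CPM against 1332 to 4258 CPM). The 11 plasma cell markers summed to 110800 to 113200 CPM in its libraries and to 45680 to 66020 CPM in the others. Most of the sum in IL6Myc-2 came from the immunoglobulin genes Igkc and Igha. The list went both ways: of the 11 markers, 4 had their highest mean in IL6Myc-2 and 4 their lowest. The TMM factors of IL6Myc-2, 0.848 to 0.860, also stood apart from those of the other lines, 0.988 to 1.078. The part of these in the Tfrc level was not tested.

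The genes whose profile lay nearest to that of Tfrc, by the root mean square difference of centred log2(CPM + 1) over the 15 libraries among 11054 named genes, were Tmtc3 (0.184), Ly6g6g (0.196), Hmgn2 (0.237), Tmed1 (0.272) and Pipox (0.278). Tmtc3, for example, averaged 10.03 CPM in the libraries of IL6Myc-2 and 35.34 CPM in those of IL6Myc-4, and Hmgn2, a nucleosome-binding protein gene, 87.05 and 234.9 CPM. Ly6g6g was near the limit of detection, with means of 0 CPM in IL6Myc-2 and 1.21 to 1.94 CPM elsewhere. Its likeness to Tfrc depends on the added 1, which shrinks differences at such levels. These 5 were picked for likeness, and their low level in IL6Myc-2 follows from the choice.

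Slc11a2, the endosomal divalent metal transporter DMT1, varied little. IL6Myc-2, IL6Myc-3 and IL6Myc-4 lay at 34.7 to 39.4 CPM and overlapped each other, and IL6Myc-1 and IL6Myc-5 lay at 26.9 to 30.5 CPM, also overlapping. The 2 sets did not overlap, but the whole span between line means was 1.32-fold. Slc11a2 was therefore not low where Tfrc was low.

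Steap3, an endosomal ferrireductase best known from red cell precursors, was near the limit of detection. IL6Myc-1 had 1.71, 1.80 and 1.49 CPM, IL6Myc-2 had 1.67, 1.37 and 1.17 CPM, and IL6Myc-3 had 0.938, 0.890 and 0.682 CPM. IL6Myc-4 had 0.2502, 0.2322 and 0.499 CPM. In IL6Myc-5 a total of 5 counts was spread over the libraries, at 0.0398, 0.0531 and 0.114 CPM, below the other 12 libraries. The log2 difference of IL6Myc-5 was -3.57 ± 0.40 (SE) in edgeR and -0.89 in limma on log2(CPM + 1), where the added 1 exceeds the level itself.

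Among the storage genes, Fth1, the ferritin heavy chain that oxidises iron for storage, was lowest in IL6Myc-3. Its libraries were at 506, 505 and 498 CPM in IL6Myc-3 and at 758, 789 and 781 CPM in IL6Myc-1. IL6Myc-5 had 1046, 975 and 1019 CPM, IL6Myc-2 had 1314, 1383 and 1324 CPM, and IL6Myc-4 had 1452, 1483 and 1548 CPM. No 2 lines overlapped, and the means spanned 2.97-fold, from 503 ± 4.3 to 1494 ± 49 CPM. The log2 difference from the mean of the other 4 lines was -1.16 ± 0.03 (SE) for IL6Myc-3 and 0.81 ± 0.03 for IL6Myc-4.

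Ftl1, the ferritin light chain, which favours the mineral core, had another order. IL6Myc-1 was highest at 1213, 1344 and 1335 CPM, and IL6Myc-2 followed at 1058, 1061 and 1063 CPM. IL6Myc-5 was at 1021, 866 and 989 CPM. IL6Myc-3, at 587, 583 and 611 CPM, and IL6Myc-4, at 600, 571 and 598 CPM, overlapped at the low end. The means spanned 2.20-fold, and the log2 difference was 0.75 ± 0.04 (SE) for IL6Myc-1, -0.66 ± 0.04 for IL6Myc-3 and -0.67 ± 0.04 for IL6Myc-4. IL6Myc-4 thus had the highest heavy chain and, with IL6Myc-3, the lowest light chain level. Ferritin genes have near-identical processed copies in the genome, and reads shared with them could be assigned either way; the entry Ftl1-ps2 held 1339 counts over the 15 libraries against 339821 for Ftl1.

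Ratios of counts within a library do not depend on how libraries are scaled to each other. The Fth1 to Ftl1 ratio was 2.54 ± 0.10 (SD, n = 3) in IL6Myc-4, 1.26 ± 0.03 in IL6Myc-2, 1.06 ± 0.06 in IL6Myc-5, 0.848 ± 0.028 in IL6Myc-3 and 0.599 ± 0.023 in IL6Myc-1, a 4.23-fold span in which no 2 lines overlapped. The Tfrc to Fth1 ratio sets the mRNA with 3′ IREs against one with a 5′ IRE. It was 1.40 ± 0.03 in IL6Myc-3, 0.818 ± 0.039 in IL6Myc-1, 0.651 ± 0.022 in IL6Myc-5, 0.644 ± 0.046 in IL6Myc-4 and 0.172 ± 0.007 in IL6Myc-2. This was an 8.15-fold span, in which IL6Myc-4 and IL6Myc-5 overlapped. IL6Myc-3 and IL6Myc-2 were thus at opposite ends of the Tfrc to Fth1 ratio. Fth1 and Hmox1 were lowest and Tfrc second highest in IL6Myc-3, while Tfrc was lowest and both ferritin chains second highest in IL6Myc-2. Ftl1, which also holds a 5′ IRE, overlapped between IL6Myc-3 (593 ± 15 CPM) and IL6Myc-4 (590 ± 16 CPM), and Tfrc was higher in IL6Myc-4. The order of the lines therefore depends on the ferritin chain chosen. IRPs act on 5′ IREs through translation, so a ratio of mRNA levels does not measure their activity.

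**Figure D2:**
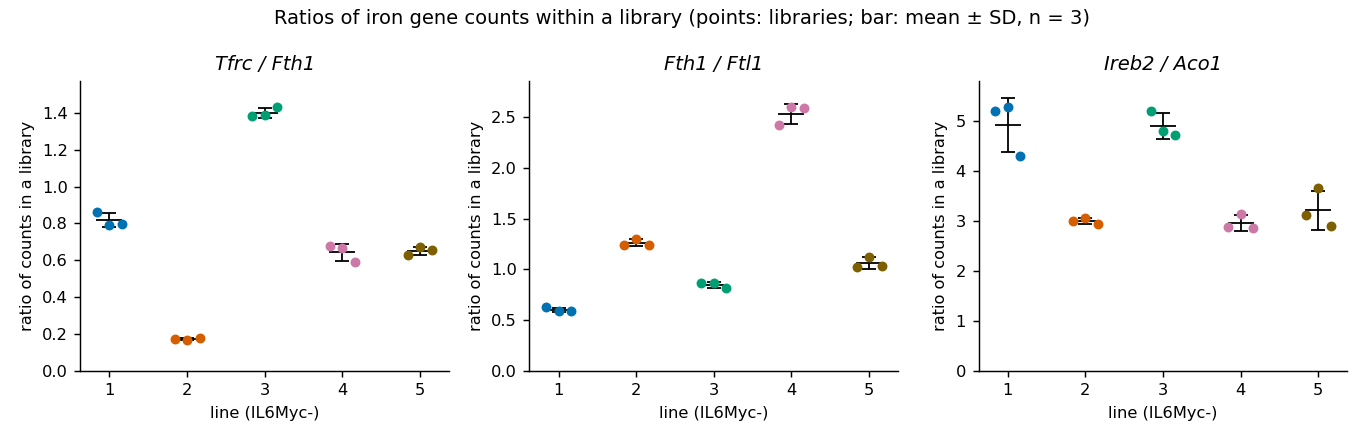
Ratios of counts of 2 genes in the same library (y axes, from 0) for the 5 lines (x axis); points are libraries, and bars give the mean ± SD of the 3 technical replicates. The Tfrc to Fth1 ratio ran from 0.172 in IL6Myc-2 to 1.40 in IL6Myc-3, and the Fth1 to Ftl1 ratio reached 2.54 in IL6Myc-4.

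Slc40a1 encodes ferroportin, the known iron exporter of mammalian cells, and was measured at a low level in IL6Myc-1. Its libraries there held 66, 58 and 47 counts, or 1.52, 2.22 and 2.26 CPM, the lowest value being that of the deepest library. IL6Myc-3 had 4 counts over its libraries and IL6Myc-5 had 1 count, at no more than 0.0975 CPM in any library. IL6Myc-2 and IL6Myc-4 had 0 counts, which allows levels of up to 0.0527 and 0.0376 CPM (3 counts over the line). Over the pooled libraries, IL6Myc-1 was at least 35.9-fold higher than IL6Myc-2 and at least 50.4-fold higher than IL6Myc-4 against that floor. It was 39.0-fold above IL6Myc-3 (exact 95% binomial interval 14.9 to 145) and 133-fold above IL6Myc-5 (23.6 to 5290). These intervals and floors cover counting error only, and 0 counts do not show that the transcript was absent.

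Hmox1, the inducible haem oxygenase that frees iron from haem, was highest in IL6Myc-5. Its libraries were at 21.3, 17.6 and 20.3 CPM there and at 7.71, 7.53 and 8.12 CPM in IL6Myc-3, the lowest line. IL6Myc-1 lay at 11.96 to 14.4 CPM, IL6Myc-2 at 11.2 to 11.4 CPM and IL6Myc-4 at 9.13 to 11.2 CPM. The means spanned 2.53-fold. IL6Myc-5 was above and IL6Myc-3 below all other libraries, with log2 differences of 0.91 ± 0.07 (SE) and -0.77 ± 0.08.

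Ireb2, or IRP2, was lowest in IL6Myc-2, at 96.2 ± 4.4 CPM, and had its highest mean in IL6Myc-3, at 136 ± 3.5 CPM, a 1.41-fold span. Its libraries in IL6Myc-2 were at 94.7, 92.6 and 101 CPM, below the other 12, which lay at 102 to 138 CPM. IL6Myc-3 overlapped IL6Myc-1, and IL6Myc-4 overlapped IL6Myc-5. IL6Myc-2 thus had the lowest Tfrc and the lowest Ireb2 of the lines.

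Aco1, or IRP1, which doubles as cytosolic aconitase when it carries an iron-sulfur cluster, was highest in IL6Myc-4, at 40.0, 38.0 and 38.5 CPM, above the other 12 libraries. Its lowest lines were IL6Myc-1, at 26.4 ± 2.6 CPM, and IL6Myc-3, at 27.7 ± 1.1 CPM, which overlapped. The Ireb2 to Aco1 ratio within a library was 4.30 to 5.26 in IL6Myc-1 and 4.71 to 5.20 in IL6Myc-3. It was 2.85 to 3.64 in the 9 libraries of the other lines, so that the 2 sets did not overlap. Fbxl5 varied least of the members, from 26.9 ± 1.2 to 32.5 ± 2.1 CPM, and each line overlapped the next in order.

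Levels of different genes can be compared only per length. On CPM per kb of the transcript numbered 201 in GENCODE M21, averaged over the lines, Fth1 was at 1104 and Ftl1 at 930, followed by Tfrc at 130 and Ireb2 at 20.3. Slc11a2, Fbxl5, Aco1 and Hmox1 lay between 7.99 and 11.3, and Steap3 and Slc40a1 at 0.294 and 0.122. Ireb2 exceeded Aco1 on this scale in every line, its lowest line mean being 16.7 and the highest of Aco1 10.1 CPM per kb.

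Of the 10 members, 6 (Tfrc, Fth1, Ftl1, Slc40a1, Hmox1 and Steap3) passed the call used for the whole table: an adjusted p under 0.05 in edgeR's F-test over the lines together with a span of 1 log2 unit or more from the lowest line to the highest. The same call was passed by 32.1% of all tested genes, and since the members were chosen with these data known, nothing is read from their count. The median span was 1.24 log2 units over the members and 0.70 over all tested genes. Counted line by line against the mean of the other 4, 2 members were called in IL6Myc-1 (12.5% of all genes were called in either direction), 2 in IL6Myc-2 (12.7%), 1 in IL6Myc-3 (7.65%), 0 in IL6Myc-4 (9.65%) and 1 in IL6Myc-5 (7.98%). Those called higher were Slc40a1 and Steap3 in IL6Myc-1, where 4.39% of all genes were called higher, and Steap3 in IL6Myc-2, where 8.6% were. Both genes passed the filter only through the lines in which they were called higher, so the filter itself set these directions. The Steap3 differences fell under 1 log2 unit in limma on log2(CPM + 1), at 0.75 in IL6Myc-1 and 0.56 in IL6Myc-2. Of all genes, 4.6% were called higher in IL6Myc-3, 5.28% in IL6Myc-4 and 4.8% in IL6Myc-5, with none of the members among them. Those called lower were Tfrc in IL6Myc-2 (4.08% of all genes), Fth1 in IL6Myc-3 (3.05%) and Steap3 in IL6Myc-5 (3.19%), while 8.11% of all genes were called lower in IL6Myc-1 and 4.37% in IL6Myc-4. Since Steap3 passed the filter through IL6Myc-1 and IL6Myc-2, nothing is read from its lower call in IL6Myc-5.

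A line could also stand outside the other 12 libraries without passing that call. Above them stood Ftl1 and Slc40a1 in IL6Myc-1, as did 14.5% of all genes. Tfrc, Fth1 and Aco1 did so in IL6Myc-4 (9.05% of all genes) and Hmox1 in IL6Myc-5 (6.41%). No member did in IL6Myc-2 or IL6Myc-3, where the shares were 13.8% and 5.9%. Below the other 12 stood Tfrc and Ireb2 in IL6Myc-2 (11.2% of all genes), Fth1 and Hmox1 in IL6Myc-3 (5.14%) and Steap3 in IL6Myc-5 (4.99%). No member was below them in IL6Myc-1 (13.5%) or IL6Myc-4 (6.72%). Slc40a1 passed the filter only through IL6Myc-1, so the filter set its standing above the other libraries. Steap3 passed it only through IL6Myc-1 and IL6Myc-2, so nothing is read from its place in IL6Myc-5.

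The rest of the pathway was read from 8 lists of iron, haem and redox genes that are not members. Of their 111 genes, 90 were tested and 26 (28.9%) were called among the lines in the F-test, against 32.1% of all genes. The median span was 0.57 log2 units, against 0.70 over all genes tested. With a filter of 5 CPM in 3 libraries, 15 of the list genes were called. The share called differed by list, from 0 of 7 for storage to 4 of 5 for export and systemic control, as the bars by list show.

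**Figure D3:**
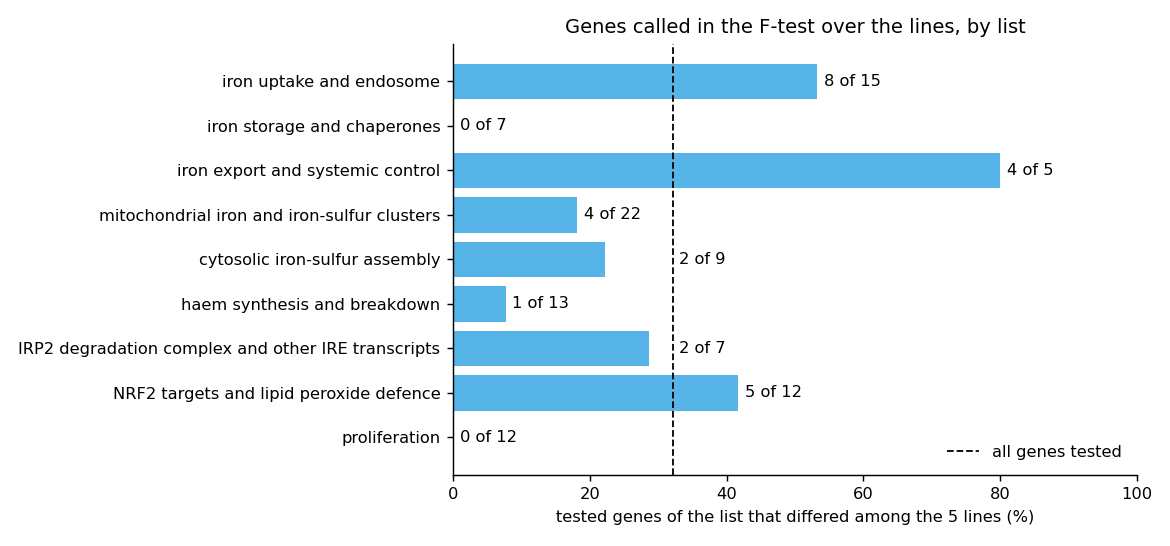
Share of the tested genes of each list that were called among the 5 lines (x axis, %; edgeR F-test, adjusted p under 0.05 and at least 1 log2 unit), with the number called beside each bar; the dashed line marks the 32.1% of all tested genes. The uptake, export and NRF2 lists lie above the line, and the storage and proliferation lists had no called gene.

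For uptake and the endosome, 8 of 15 tested genes were called. Slc39a14, or ZIP14, which imports iron that is not bound to transferrin, reached 172 ± 9.0 CPM in IL6Myc-4, while means elsewhere were 70.3 to 90.9 CPM (log2 difference 1.12 ± 0.06, edgeR adjusted p = 3.99e-11; higher in 3 of 3 libraries than in the other 12). Slc48a1, or HRG1, which moves haem out of endosomes and lysosomes, was lowest in IL6Myc-3 (82.9 ± 1.6 CPM) and highest in IL6Myc-4 (219 ± 4.0 CPM; F-test adjusted p = 1.26e-15, edgeR). IL6Myc-4 was the line with the highest Tfrc as well. Slc39a8, or ZIP8, was highest in IL6Myc-1, at 7.18 ± 0.43 CPM, where means elsewhere were 2.20 to 4.76 CPM (log2 difference 1.28 ± 0.10, edgeR adjusted p = 1.09e-08). The remaining called genes, Tfr2, Slc46a1, Lrp1, Scara5 and Lcn2, stayed under 5 CPM in every line. Tfr2, the second transferrin receptor, had means of 1.54 ± 0.67 CPM (IL6Myc-2) to 3.999 ± 1.1 CPM (IL6Myc-4), and its call was lost in limma on log2(CPM + 1), with a span of 0.99 log2 units. Trf, transferrin itself, was not called (span 0.97 log2 units), with means of 5.25 ± 0.25 CPM (IL6Myc-2) to 10.3 ± 0.93 CPM (IL6Myc-3). It passed the size threshold when either of 2 libraries was left out, at 1.01 without the first replicate of IL6Myc-1 and 1.04 without the third of IL6Myc-3.

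For storage and iron chaperones, 0 of 7 tested genes were called in edgeR, DESeq2 or limma, while 6 of them had an unadjusted p under 0.05 in the F-test of each. Their largest span was 0.682 log2 units in edgeR. Ncoa4, the receptor that delivers ferritin to lysosomes, lay between 52.0 ± 3.4 and 66.6 ± 6.9 CPM. Pcbp1 and Pcbp2, which hand iron to ferritin, had their highest means in IL6Myc-2, 355 ± 1.5 and 493 ± 2.4 CPM. Pcbp2 overlapped there with IL6Myc-5 (493 ± 25 CPM). The lowest means were 221 ± 12 CPM for Pcbp1 (IL6Myc-1) and 374 ± 9.1 CPM for Pcbp2 (IL6Myc-3).

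For export and systemic control, 4 of 5 tested genes were called, of which Cp was above 5 CPM and Bmp6, Tmprss6 and Abcg2 were not. Cp encodes ceruloplasmin, a ferroxidase that works with ferroportin, and was at 75.6 ± 1.3 CPM in IL6Myc-2 (log2 difference 2.76 ± 0.08, edgeR adjusted p = 2.31e-14; above the other 12 libraries in 3 of 3). IL6Myc-5 followed at 26.2 ± 2.3 CPM, then IL6Myc-1 at 10.8 ± 1.3 CPM, IL6Myc-3 at 7.62 ± 0.61 CPM and IL6Myc-4 at 7.26 ± 1.8 CPM. Its highest line had 0 counts of Slc40a1. Heph, another ferroxidase, was at 0.0108 CPM or less, and Hamp, the gene of the iron hormone hepcidin, at 0.0620 CPM or less in each line.

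In the mitochondrial list 4 of 22 genes were called. Slc25a37, or mitoferrin 1, which carries iron into mitochondria, was low in IL6Myc-3 (37.6 ± 1.8 CPM) and IL6Myc-1 (39.7 ± 1.0 CPM) and highest in IL6Myc-4 (104 ± 5.1 CPM; F-test adjusted p = 2.96e-12, edgeR). Its relative Slc25a28, mitoferrin 2, was not called and lay between 27.9 ± 1.1 and 40.98 ± 4.4 CPM. Bola1, a factor of mitochondrial redox and iron-sulfur biology, averaged 55.99 ± 5.5 CPM in IL6Myc-5, with means of 14.8 to 26.8 CPM elsewhere (log2 difference 1.56 ± 0.05, edgeR adjusted p = 3.28e-13). Fdx1 and Fdxr, a ferredoxin and its reductase, both had their highest means in IL6Myc-5, 13.4 ± 0.63 and 25.2 ± 2.2 CPM, each overlapping another line, and were lowest in IL6Myc-1, at 5.41 ± 0.41 and 11.5 ± 1.4 CPM. The core assembly genes Iscu and Nfs1 were not called.

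In the cytosolic assembly list, 2 of 9 genes were called, both lower in IL6Myc-1. Nubp2, a scaffold of cluster assembly, averaged 28.7 ± 1.3 CPM there, with means of 52.4 to 74.8 CPM elsewhere (log2 difference -1.09 ± 0.05, edgeR adjusted p = 4.31e-12). Ciao3, which passes clusters on to their targets, averaged 13.1 ± 1.4 CPM, with means of 25.5 to 37.8 CPM elsewhere (log2 difference -1.17 ± 0.07, edgeR adjusted p = 3.5e-10).

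Haem synthesis and breakdown had 1 called gene of 13. Alas1, the first enzyme of haem synthesis, was lowest in IL6Myc-1 (14.8 ± 1.2 CPM) and had its highest mean in IL6Myc-3 (33.4 ± 1.4 CPM; F-test adjusted p = 1.79e-08, edgeR). Bach1, a haem-sensing repressor of Hmox1, was not called, at 35.8 ± 0.75 to 48.9 ± 1.2 CPM, with its highest mean in IL6Myc-5, the line with the highest Hmox1, where it overlapped IL6Myc-4. The partners of Fbxl5 in its ubiquitin ligase were not called either: Skp1 lay between 206 ± 12 and 247 ± 7.4 CPM and Cul1 between 43.7 ± 2.0 and 64.7 ± 0.48 CPM. In the same list of 7 tested genes, Cdc42bpa, a kinase gene whose mRNA has been described with an IRE, was called, with means of 1.501 ± 0.19 CPM (IL6Myc-1) to 5.55 ± 0.82 CPM (IL6Myc-2). Cdc14a, the other called gene, stayed under 5 CPM.

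NRF2, the oxidative stress factor encoded by Nfe2l2, is known to drive Hmox1, Fth1 and Ftl1. Of 12 tested genes on its list, 5 were called. Nfe2l2 was highest in IL6Myc-1, at 119 ± 1.0 CPM, and lowest in IL6Myc-2, at 55.2 ± 0.76 CPM, with IL6Myc-3, IL6Myc-4 and IL6Myc-5 at 81.0 ± 2.1, 71.2 ± 0.96 and 60.8 ± 0.64 CPM (F-test adjusted p = 1.27e-13, edgeR). Gclm and Gclc, the subunits of the enzyme that starts glutathione synthesis, were highest in IL6Myc-1, at 25.3 ± 1.7 and 48.9 ± 1.8 CPM, and lowest in IL6Myc-5, at 9.52 ± 1.1 and 21.4 ± 1.2 CPM. Of the 12 genes, 7 had their highest mean in IL6Myc-1, but 0 of the 12 were called higher there in edgeR: the log2 differences of Nfe2l2, Gclm and Gclc were 0.85, 0.86 and 0.75, under the threshold of 1. Gpx4, which reduces lipid peroxides and protects from ferroptosis, an iron-dependent cell death, averaged 166 ± 2.9 CPM in IL6Myc-2, with means of 63.7 to 89.1 CPM elsewhere (log2 difference 1.14 ± 0.04, edgeR adjusted p = 5.95e-13). Srxn1, a sulfiredoxin, was at 6.99 ± 1.2 CPM (398 counts) in IL6Myc-2, had 1 count in IL6Myc-1 and had 0 counts in IL6Myc-4, which was at least 186-fold lower when 3 counts over the line are taken as the floor.

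**Figure D4:**
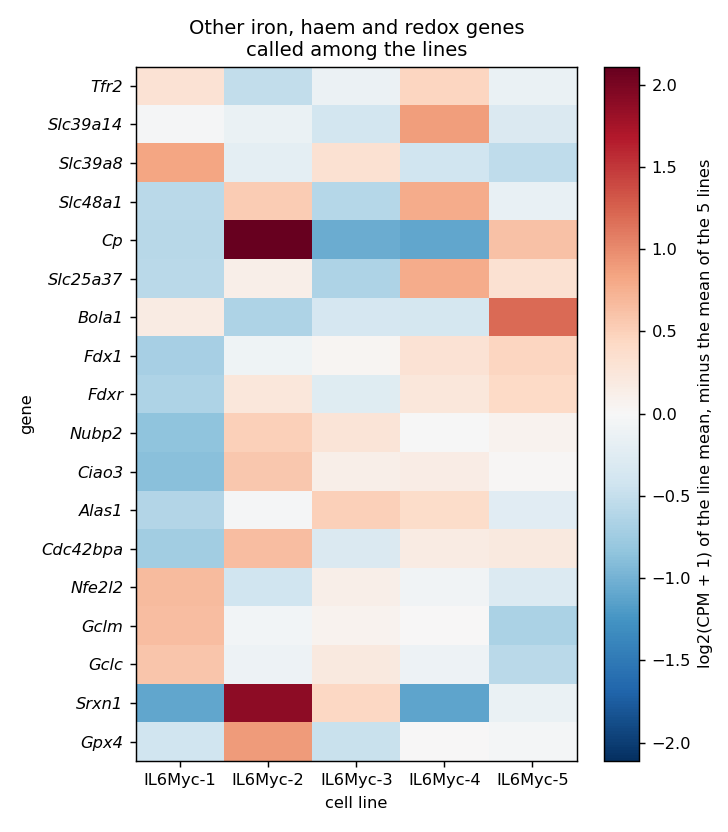
Genes of the 8 lists that were called among the lines and reached 5 CPM in their highest line, together with Tfr2 (rows), in the 5 lines (columns); called genes that stayed under 5 CPM are not drawn; the colour gives the log2(CPM + 1) of the line mean minus the mean of the 5 lines. Cp and Srxn1 in IL6Myc-2, Bola1 in IL6Myc-5, and Slc39a14, Slc48a1 and Slc25a37 in IL6Myc-4 are the darkest reds of their rows.

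All 11 plasma cell markers were tested in the lines, and 7 of them were called among the lines, as were 32.1% of all tested genes. Line means of Xbp1 lay at 1573 to 1904 CPM and those of Irf4 at 964 to 1200 CPM. Tnfrsf17 was lowest in IL6Myc-2, at 8.81 CPM, and highest in IL6Myc-1, at 47.6 CPM, and the immunoglobulin genes Igkc and Igha were highest in IL6Myc-2, at 53650 and 41566 CPM, with lowest means of 15184 and 17962 CPM. The haemoglobin genes Hba-a1, Hba-a2 and Hbb-bt had at most 3 counts over a line. The 11 erythroid markers in the table summed to 4.78 to 6.69 CPM in the libraries of IL6Myc-2 and 0.520 to 2.82 CPM in the others. Most of the sum came from Slc4a1 (4.91 ± 0.58 CPM in IL6Myc-2), except in IL6Myc-3, where Slc4a1 was at 0.203 ± 0.12 CPM. The 15 macrophage and monocyte markers summed to 718 to 775 CPM in IL6Myc-4, where Tfrc, Fth1 and Aco1 were highest, against 143 to 312 CPM in the other lines. Most of the IL6Myc-4 sum came from C1qb. Of the 5 markers on this list that were tested, 3 had their highest mean in IL6Myc-2, the line with the lowest Tfrc, and 2 in IL6Myc-4. C1qb was at 490 ± 26 CPM in IL6Myc-4, while Lyz2 had 0 counts and Csf1r 1 count there. The 7 T and NK cell markers summed to 119 to 123 CPM in IL6Myc-4 and 23.6 to 71.1 CPM in the others. All 4 that passed the filter and were tested were called higher in IL6Myc-4, as were 5.28% of all genes. Among them was Prf1, at 14.8 ± 1.4 CPM in IL6Myc-4 against line means of at most 3.04 CPM elsewhere. Cd3e had at most 4 counts over a line. Gzmb and Ncr1 had 0 counts in every line. The part of these markers in the iron gene levels was not tested.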

How the data were processed

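Stranded total RNA libraries (TruSeq) were made from RNeasy mini kit extracts of 5 IL6Myc lines, 3 technical replicates each, per the labels. The submitters' processing notes list GRCm39, Trim Galore 0.4.0 and DESeq2. An aligner or quantifier is not given in the sources used here. Although the authors' table is named for TPM, its deposited values were taken as estimated counts, since columns sum to 19068543 to 41165599, and in each library 30.8% to 54.3% of nonzero values below 1.5 lie within 0.02 of 1. A length correction by the quantifier would carry into the levels. A further deposited column, a mean of the 15 libraries to within 6e-05, was not used.

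Estimated counts were rounded, and genes reaching 1 CPM in 3 libraries or more were kept. Counts were then scaled by TMM (factors 0.848 to 1.08). They were fitted with edgeR 4.0.16 (R 4.3.3, quasi-likelihood) to all 15 libraries with line as the factor. Calls needed a Benjamini-Hochberg adjusted p under 0.05 over all 11773 genes and at least 1 log2 unit. The code was tested on simulated data. Replicates of a line differed by more than sampling noise (chi-square per degree of freedom 4.54 to 20.0) and were kept as 3.

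The members and lists were chosen with earlier results of these data known. Named genes are the members, up to 4 called genes per list at 5 CPM or more by span, a fixed set, and the 5 nearest to Tfrc; Slc46a1, Lrp1, Scara5, Lcn2, Cdc14a, Bmp6, Tmprss6, Abcg2, Xbp1, Irf4, Tnfrsf17, Igkc, Igha, Prf1, C1qb, Slc4a1, Rn18s, Iscu and Nfs1 were named after their values were seen. Alternatives were DESeq2 1.42.0, limma 3.58.1, RLE factors, other filters, a replicate block and leaving out each library.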

Additional observations from a re-analysis of the deposited data

How the results depend on the processing

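The 45 log2 differences of the members other than Slc40a1 were recomputed under each alternative, except that Steap3 dropped out under the filter of 5 CPM. Those of Tfrc in IL6Myc-2 lay between -1.68 and -1.65, and those of Fth1 in IL6Myc-3 between -1.16 and -1.15. Steap3, with few counts, ranged from -4.16 to -0.89 in IL6Myc-5. The Slc40a1 level of IL6Myc-1 moved by less than its replicate SD with RLE factors and with the other filters. DESeq2, limma and the replicate block reuse the same scaled level. Leaving out 1 of 3 replicates cannot move their mean by a full SD, so those settings do not test this level. The count of genes called among the lines (3783) was 2449 with a filter of 5 CPM, where fewer genes were tested, and that of the other iron pathway genes (26) was 15. Counts of genes called for IL6Myc-1 to IL6Myc-5 (1472, 1493, 901, 1136 and 940) were 873, 844, 480, 645 and 495 with that filter, 2225, 2413, 1548, 1752 and 1489 with no filter, and 924, 935, 426, 669 and 491 with limma on log2(CPM + 1), where the added 1 shrinks differences of low genes. With 1 library left out, they were 1393 to 1457, 1366 to 1486, 842 to 892, 1077 to 1136 and 902 to 933, with 3650 to 3784 genes called among the lines and 25 to 27 pathway genes.

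The replicate number as a block gave 3785 genes among the lines and 26 pathway genes. Libraries with the same number in different lines showed little common deviation (mean r 0.013 over 30 pairs, from -0.0841 to 0.11, across genes). The mean r was -0.00651 over 60 pairs with different numbers, and 7 of 15 libraries correlated best with their own number. No clear pairing by number was seen, but these values do not settle whether the numbers pair the samples. Depth limits Slc40a1 and Steap3, whose lowest lines hold 0 to 5 counts.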
